A study of Mus musculus with 10 samples.

Results

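The cytoplasmic ribosomal protein genes were taken as the genes whose symbol is Rpl or Rps followed by a number and at most an a or x, together with Rplp0, Rplp1, Rplp2 and Rpsa, provided that their mean over the libraries was at least 10 normalized counts. By this rule 76 of the 54456 genes in the table were ribosomal protein genes, 46 of the large subunit and 30 of the small subunit. All 76 names passed the level filter, and all 76 were among the 15240 genes tested. Paralogs with an l in the name, pseudogenes and predicted genes were left out by the rule, as were Fau, Rps3a1 and Rack1, which encode ribosomal or ribosome-bound proteins under other names.

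The cytoplasmic ribosome is built from ribosomal RNA and one copy of most ribosomal proteins, so that each protein is needed in a fixed ratio to the others. Small-subunit proteins surround the decoding site where messenger RNA meets transfer RNA, and large-subunit proteins surround the peptide bond centre, the exit tunnel and the stalk that recruits translation factors. Ribosomal protein genes are among the most actively transcribed genes of growing cells such as embryonic stem cells, and their messenger RNAs begin with a pyrimidine tract through which translation is tied to growth signalling.

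The data were RNA levels of mouse embryonic stem cells (strain C57BL/6J) in 7 libraries, made from total RNA with a stranded kit that removes ribosomal RNA. Each of the lines conv-dSVA_F&D, conv-dSVA_F and conv-dSVA_D had 2 libraries, and the wild type line MK6 had 1. All cells were grown on gelatin in serum medium with LIF, CHIR99021 (an inhibitor of GSK3) and PD0325901 (an inhibitor of MEK). The pre-conversion XDP library and both striatal libraries were not analysed here. In the labels, the genotype of each converted line holds a loxP site at Taf1_i24, the entries pSpCas9 and pSpCas9GFP marked null, LPSwapinRed_pUC19 at Taf1_3_4, a converted, mousified hTAF1 humanization of Taf1 at Taf1_1_2 and pCAGiCre marked null. The humanized allele is marked SVAdel+dSVA2 in conv-dSVA_F&D, SVAdel in conv-dSVA_F and dSVA2 in conv-dSVA_D, where SVA is a composite human retrotransposon, and MK6 is labelled wild type. Each genotype is 1 named line with no clone given, and effects of the genotype cannot be told apart from those of the line. The labels do not say that libraries came from separate cultures, so p-values measure the spread between these libraries, which may be technical.

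The libraries held from 16588467 reads assigned to genes (conv-dSVA_F&D replicate 2) to 26562418 (conv-dSVA_D replicate 2). Taf1, the edited gene, had 1116 and 1088 normalized counts in conv-dSVA_F&D, 501 and 589 in conv-dSVA_F, 362 and 418 in conv-dSVA_D, and 2898 in the wild type. Of 8 embryonic stem cell markers none was at 0 in any library, and their summed level lay between 126019 and 160466 normalized counts in the converted libraries, against 145858 in the wild type. Summed levels of 8 fibroblast markers were 80.8 to 198 normalized counts in the converted libraries and 347 in the wild type, with 2 to 5 of the 8 at 0 in each converted library and 2 in the wild type. Among them, Col1a2 had 0 to 8.36 normalized counts in the converted libraries and 96.1 in the wild type. Postn was at 0 in all 6 converted libraries and had 57.9 in the wild type. Col1a1 and Col3a1 were also highest in the wild type. Thy1 had 43.2 in conv-dSVA_F&D replicate 2 and 46.8 in conv-dSVA_F replicate 1, against 29.5 in the wild type. Pdgfrb had 110 in conv-dSVA_F&D replicate 2, against 79.7. Dcn was at 0 in the wild type and reached 4.25 in conv-dSVA_F replicate 1, and Lum was at 0 throughout. Of the 4 fibroblast markers tested, none passed against the wild type. The 5 markers of the two-cell-like state in the table summed to 51.4 to 665 normalized counts in the converted libraries and to 1434 in the wild type. Whether such cells were present, and their part in the differences from the wild type, was not tested.

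Promoter sequences of 250 bases before and 50 bases after the annotated start were available for 56 of the 76 genes in RefSeq (GRCm38.p6). They are shown for Rps16, the ribosomal protein gene that stood highest above the wild type, and for 3 genes that fell in the converted lines. These 3 were chosen because they hold the letters CGGAAG. Of the 7 genes that fell and have a promoter entry, 3 (42.9%) hold these letters, and the rest are not shown. The first is the run of 213 bases that ends just before the GENCODE start of Rps16, on the plus strand of GRCm38 at chr7:28350439-28350651. The other windows have 30 bases, from Rps25 (chr9:44407630-44407659, plus strand), Rpl10 (chrX:74270596-74270625, plus strand) and Rps12 (chr10:23787160-23787189, minus strand). All are written 5′ to 3′ on the strand of the gene, with the letters CGGAAG, or their reverse complement CTTCCG, in capitals. CGGAAG is the core that ETS-family factors such as GABPA bind. The first capital stands at -122 from the GENCODE start in Rps16. From the annotated start it stands at -72 in Rps25, at -208 in Rpl10 and at 42, after the start, in Rps12. The promoter of Rps12 holds 2 matches, and the nearer to the start is shown.
Rps16: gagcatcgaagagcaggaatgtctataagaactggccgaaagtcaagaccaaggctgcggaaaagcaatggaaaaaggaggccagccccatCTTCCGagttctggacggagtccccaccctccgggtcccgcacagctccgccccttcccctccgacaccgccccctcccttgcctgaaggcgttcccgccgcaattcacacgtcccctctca
Rps25: cacccattgcccCGGAAGtactctctcgag
Rpl10: aatatggccaggCGGAAGctggtttctctt
Rps12: ccgccgccgacttgcgcggaggCGGAAGct

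CGGAAG, searched on both strands, was present in 38 of the 56 promoters (67.9%), against 22.3% of 16399 protein-coding promoters of the same length. By subunit it was in 21 of 34 large-subunit promoters and 17 of 22 small-subunit promoters. The pyrimidine-rich letters CTCTTTC, searched on the strand of the gene, were in 13 of 56 promoters (23.2%) against 3.79% of all. TCGCGAGA, searched on both strands, was in 10 of 56 (17.9%) against 1.54% of all. TATAAA, searched on the strand of the gene, was in 5 of 56 (8.93%) against 8.60% of all, so the share with this TATA-box core was close to that of other promoters. None of these motifs contains another, and a match is a description of the sequence.

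Levels per length spanned a wide range among the 76 genes. Rplp1, a protein of the acidic stalk, was highest with 111567 normalized counts per kilobase of exon in the mean over the 7 libraries. Rpl32, Rpl36, Rpl38 and Rps15 followed with 58460, 57094, 56052 and 48661 normalized counts per kilobase. At the other end stood Rps10, Rpl24, Rpl13a, Rpl5 and Rpl27a with 1138, 1616, 1618, 2743 and 3678 normalized counts per kilobase. With the length of the principal transcript in place of all exons, Rplp1 stayed the highest, Rps27 and Rps21 came next, and Rpl24, Rps10, Rpl13a and Rpl5 were again the lowest 4. Rps16 ranked 56 of 76 by exon length and 70 of 76 by principal transcript.

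Ribosomal protein genes have many processed pseudogenes, and reads from a gene and a near-identical copy cannot be told apart with certainty. Copies that covered at least 80% of the coding sequence at 90% identity or more were found in GENCODE for 72 of the 76 genes, with a median of 9 and a maximum of 76 copies, for Rpl21. For 63 genes at least 1 copy was at least 98% identical. The copies together held 1.05% to 1.23% of the normalized counts of the genes in the 7 libraries. Rpl24, Rpl13a and Rps10, which were among the lowest per length, had copies at 24.6%, 12.02% and 9.92% of their own mean level. Copies of Rpl31, Rps29 and Rps28 stood at 10.7%, 6.92% and 6.54% of the level of the gene. The levels of all these genes are uncertain.

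In the converted lines the ribosomal protein genes took a smaller share of reads than in the wild type. The share was 8.62% and 9.17% in conv-dSVA_F&D, 8.21% and 8.17% in conv-dSVA_F, 7.33% and 7.97% in conv-dSVA_D, and 10.4% in the wild type. All 6 converted libraries were below the wild type, both conv-dSVA_F&D libraries were above the others of the converted lines, and both conv-dSVA_D libraries were below them. The share averaged 8.90% ± 0.393 in conv-dSVA_F&D, 8.19% ± 0.0269 in conv-dSVA_F and 7.65% ± 0.455 in conv-dSVA_D (SD, n = 2 each). Counting error was small beside these gaps: the 95% Wilson interval was 8.61% to 8.63% in conv-dSVA_F&D replicate 1, and it covers counting error only. In bulk RNA, fewer cells with a transcript and less of it per cell cannot be told apart.

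**Figure D1:**
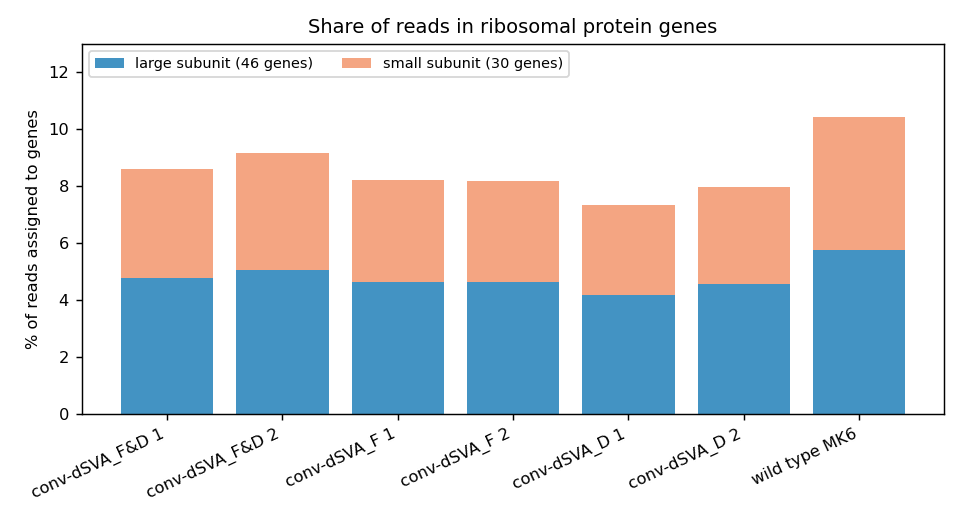
Percent of reads assigned to genes that fell in large-subunit and small-subunit ribosomal protein genes, 1 stacked bar per library. The wild type bar reaches 10.4%, and the 6 converted bars reach 7.33% to 9.17%.

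The balance of the subunits was taken as reads in small-subunit genes divided by reads in large-subunit genes. It came to 0.801 and 0.823 in conv-dSVA_F&D, 0.770 and 0.762 in conv-dSVA_F, 0.754 and 0.748 in conv-dSVA_D, and 0.815 in the wild type. The conv-dSVA_F&D libraries lay on both sides of the wild type, and the other 4 converted libraries lay below it. After division of each gene by its exon length the ratio was 0.644 and 0.647 in conv-dSVA_F&D, 0.620 and 0.612 in conv-dSVA_F, 0.600 and 0.585 in conv-dSVA_D, and 0.634 in the wild type. On this scale both conv-dSVA_F&D libraries were above the wild type and the other 4 below it, and the order of the converted lines was the same on both scales. With 2 libraries in each line an exact two-sided permutation test cannot go below p = 0.333, so no test of the ratio was made.

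Against the wild type, 12 of the 76 ribosomal protein genes changed in the converted lines (limma, Benjamini-Hochberg adjusted p under 0.05), 11 of them lower and 1 higher. Over all genes tested 1.15% were called, 0.525% lower and 0.623% higher. The median fitted log2 difference was -0.47 over the 76 genes, -0.44 over the large subunit and -0.53 over the small subunit, against -0.01 over all genes tested. Of the 76 genes, 60 were below the wild type in all 6 converted libraries, against 19% of all genes, and 1, Rps16, was above it in all 6, against 18.8% of all genes. The other 15 lay below the wild type in some converted libraries and above it in others.

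The number of calls rested on single libraries. It was 0 without conv-dSVA_D replicate 1, when 0.0131% of all genes were called. It was 1, namely Rps16, without conv-dSVA_D replicate 2 (0.105% of all genes), without conv-dSVA_F replicate 1 (0.349%) or without conv-dSVA_F replicate 2 (0.0655%). It was 20 without conv-dSVA_F&D replicate 1 (2.62% of all genes) and 31 without conv-dSVA_F&D replicate 2 (3.92%), so the share called over all genes rose and fell with that of the ribosomal protein genes. The median over the 76 genes stayed between -0.49 and -0.45. On recovered reads edgeR called 27 of the 76 genes (26 lower, against 1.4% of all genes lower) and DESeq2 called 44 (43 lower, against 2.55% lower). The wild type was a single library, assumed in the fit to vary like the converted lines.

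**Figure D2:**
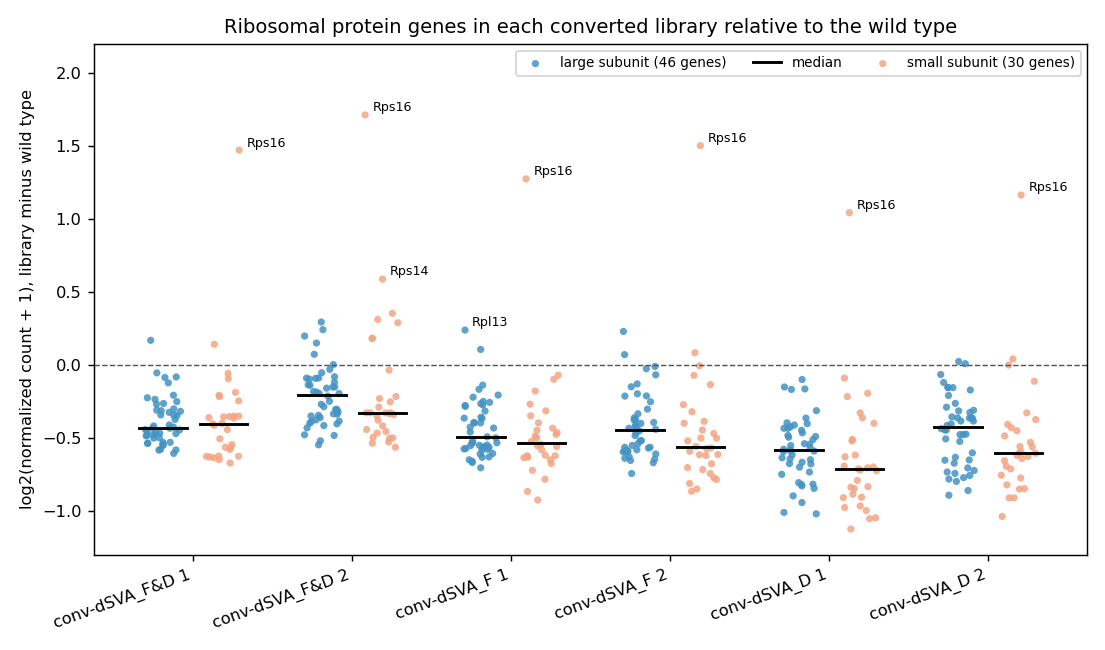
Difference from the wild type library in log2(normalized count + 1) for each ribosomal protein gene (points) in each converted library, with the median of each subunit (bars). Most points lie below 0 in every converted library, and Rps16 lies above 0 in all 6.

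Library medians of this difference were -0.42 and -0.29 in conv-dSVA_F&D, -0.51 and -0.50 in libraries of conv-dSVA_F, and -0.62 and -0.48 in conv-dSVA_D. Medians over all genes tested lay between -0.01 and 0.01 in the same libraries. The number of ribosomal protein genes below the wild type was 73 and 63 of 76 in conv-dSVA_F&D, 73 and 72 in libraries of conv-dSVA_F, and 75 and 72 in conv-dSVA_D. The library with the fewest reads, conv-dSVA_F&D replicate 2, stood nearest the wild type.

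Rps16 encodes a small-subunit protein whose tail reaches towards the decoding site, and it moved against most other ribosomal protein genes. It had 10106 and 11944 normalized counts in conv-dSVA_F&D, 8815 and 10323 in conv-dSVA_F, 7508 and 8164 in conv-dSVA_D, and 3641 in the wild type. Every converted library was above the wild type, the lowest of them in conv-dSVA_D. The fitted log2 difference was 1.36 ± 0.14 (SE), a 2.57-fold higher level (limma, adjusted p = 0.0150), and its p was the 2nd smallest of the 15240 genes tested. The call was kept in 12 of 15 alternatives and failed when conv-dSVA_D replicate 1 was left out (adjusted p = 0.0722), without a variance trend (0.267) and with each side as 1 group (0.329).

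Rps16 (ENSMUSG00000037563.15) lies on chromosome 7 at 28350652 to 28353155 in GRCm38, on the plus strand. Of its genomic neighbours within 100 kb with a mean of at least 50 normalized counts none passed the test. Supt5, which encodes a transcription elongation factor, stood at a log2 difference of 0.18 (adjusted p = 0.511) and Timm50, a mitochondrial import gene, at 0.11 (adjusted p = 0.767). Plekhg2, the next such gene downstream, stood at 1.07 (adjusted p = 0.0977), and farther downstream Lrfn1 stood at 0.93 (adjusted p = 0.152) and Samd4b at 0.68 (adjusted p = 0.176). The other 4 lay between -0.45 and -0.11. The other 13 ribosomal protein genes of chromosome 7 include Rps19, which fell.

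GENCODE annotates 6 pseudogene copies of Rps16 that met the limits above, and Rps16-ps2 is 100% identical to it over the coding sequence of 441 bases. Rps16-ps2 had 277 and 332 normalized counts in conv-dSVA_F&D, 191 and 357 in conv-dSVA_F, 196 and 193 in conv-dSVA_D, and 76.4 in the wild type. Like the gene, it was above the wild type in all 6 converted libraries, at 2.10% to 3.46% of the level of Rps16 in each library. Reads of the 2 cannot be told apart within the coding sequence. The next copy by level, Gm12058, had at most 22.3 normalized counts in any library.

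Of the small-subunit genes, Rps25, Rps27a, Rps12, Rps19 and Rps23 fell in the converted lines. Rps25, whose protein is used by viral and some cellular messenger RNAs for internal initiation, had 33286 and 37420 normalized counts in conv-dSVA_F&D, 28364 and 28388 in conv-dSVA_F, 23722 and 27520 in conv-dSVA_D, and 51747 in the wild type. Its fitted difference of -0.81 ± 0.14 was the most negative of the 76 genes (limma, adjusted p = 0.0327). Rps19, which is needed to mature the small subunit and is mutated in Diamond-Blackfan anaemia in humans, had 24892 and 25380 normalized counts in conv-dSVA_F&D, 21393 and 21972 in conv-dSVA_F, 20585 and 21797 in conv-dSVA_D, and 36814 in the wild type. Its difference was -0.70 ± 0.12 (limma, adjusted p = 0.0326), and for both genes every converted library was below the wild type. Rps27a, which is made as a fusion with ubiquitin, stood at -0.77 ± 0.13, Rps12 at -0.72 ± 0.14 and Rps23, a protein of the decoding centre, at -0.66 ± 0.13 (limma, adjusted p = 0.0376, 0.0459 and 0.0464).

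Of the large-subunit genes, Rpl10, Rpl30, Rpl21, Rpl23a, Rpl9 and Rpl14 fell. Rpl10, a late-joining protein encoded on the X chromosome, had 16829 and 19622 normalized counts in conv-dSVA_F&D, 16520 and 16102 in conv-dSVA_F, 12711 and 13797 in conv-dSVA_D, and 25624 in the wild type. The conv-dSVA_D libraries were lowest, and no converted library reached the wild type. The difference was -0.70 ± 0.13 for Rpl10, -0.68 ± 0.14 for Rpl30 and -0.65 ± 0.12 for Rpl21 (limma, adjusted p = 0.0425, 0.0486 and 0.0429). Rpl23a, at the mouth of the exit tunnel, stood at -0.63 ± 0.12, Rpl9 at -0.62 ± 0.12 and Rpl14 at -0.61 ± 0.12 (limma, adjusted p = 0.0486, 0.0486 and 0.0478). Each of the 11 genes that fell lost its call under 6 to 8 of 15 alternatives, and none changed direction.

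The stalk proteins, which bind elongation factors, did not pass the test against the wild type. Rplp0, the base of the stalk, had 44123 and 47188 normalized counts in conv-dSVA_F&D, 37282 and 40803 in conv-dSVA_F, 32886 and 32671 in conv-dSVA_D, and 54699 in the wild type. Rplp1 had 55871 and 70997 in conv-dSVA_F&D, 50768 and 55325 in conv-dSVA_F, 40307 and 41339 in conv-dSVA_D, and 75097 in the wild type. Both were below the wild type in all 6 converted libraries, with fitted differences of -0.50 ± 0.13 for Rplp0 and -0.55 ± 0.16 for Rplp1, and Rplp2 stood at -0.57 ± 0.16 (limma, adjusted p = 0.0896, 0.109 and 0.0993). At the other end Rps2, Rpl6 and Rps26 had fitted differences of 0.026, 0.013 and 0.0044 and lay among the wild type and converted values.

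**Figure D3:**
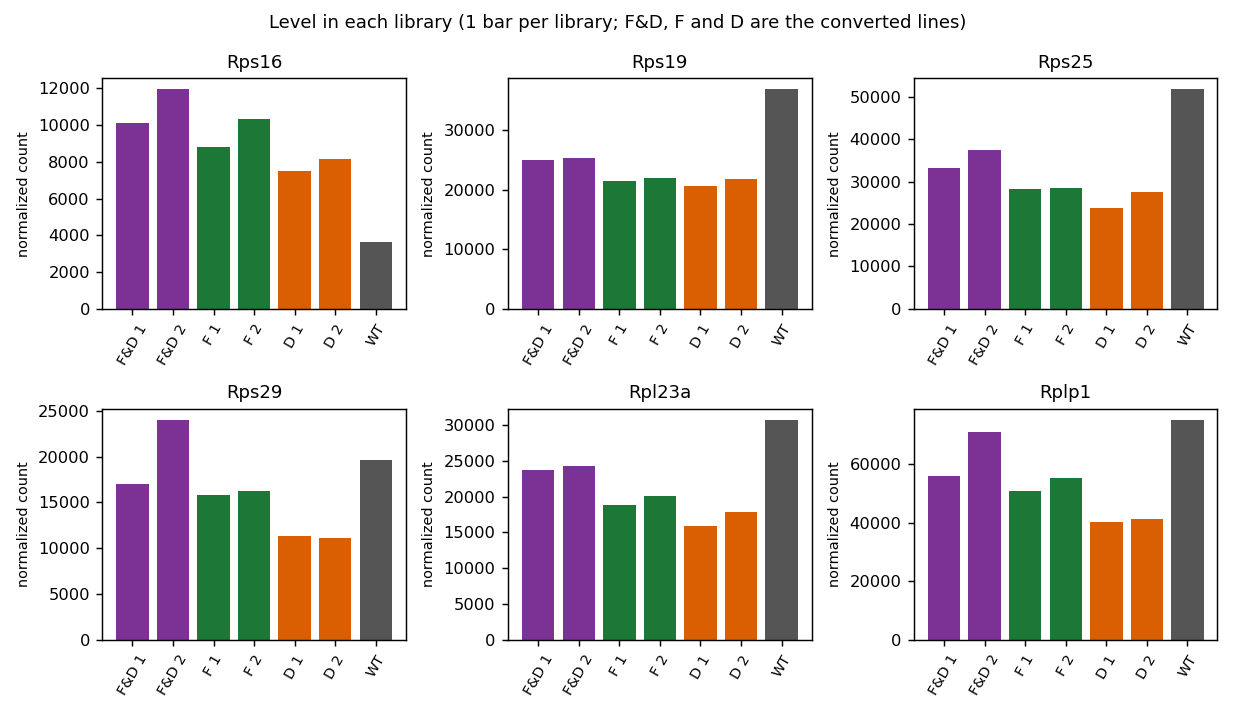
Normalized counts of 6 ribosomal protein genes in each library, 1 bar per library. Rps16 is above the wild type in all 6 converted libraries, Rps19, Rps25, Rpl23a and Rplp1 are below it in all 6, and Rps29 reaches from 11100 to 23973 in the converted lines around 19621 in the wild type.

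Among the converted lines, Rps29 and Rpl23a rose in conv-dSVA_F&D relative to conv-dSVA_D (limma, Benjamini-Hochberg adjusted p under 0.05), and none of the 76 genes fell. This is 2 of 76 genes, against 3.16% of all genes tested, 1.96% of them higher. The median fitted difference was 0.23, with 0.20 over the large subunit and 0.27 over the small subunit, against 0.00 over all genes. By sign, 72 of 76 fitted differences were above 0, against 49.7% of all genes. Both conv-dSVA_F&D libraries were above both conv-dSVA_D libraries for 53 of 76 genes, against 25.1% of all genes.

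Rps29, a zinc-binding protein of the small-subunit head, had 16986 and 23973 normalized counts in conv-dSVA_F&D, 15773 and 16248 in libraries of conv-dSVA_F, and 11333 and 11100 in conv-dSVA_D, with 19621 in the wild type. The conv-dSVA_D libraries were the lowest of the 7, and conv-dSVA_F&D replicate 2 was the only library above the wild type. The fitted difference of conv-dSVA_F&D from conv-dSVA_D was 0.85 ± 0.15 (limma, adjusted p = 0.0226). The call was lost without either conv-dSVA_D library, without a variance trend and without the filter on low values, with adjusted p up to 0.212.

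Rpl23a had 23668 and 24263 normalized counts in conv-dSVA_F&D, 18811 and 20086 in libraries of conv-dSVA_F, and 15947 and 17828 in conv-dSVA_D. The values of the 3 lines did not overlap. The difference of conv-dSVA_F&D from conv-dSVA_D was 0.51 ± 0.11 (limma, adjusted p = 0.0470), and it was kept in 5 of 15 alternatives. Rplp1 at 0.63 ± 0.15, Rps12 at 0.54 ± 0.13, Rps21 at 0.72 ± 0.18 and Rplp0 at 0.48 ± 0.12 came next without passing (limma, adjusted p = 0.0515, 0.0540, 0.0643 and 0.0643). The most negative difference was that of Rpl32 at -0.33 ± 0.13 (adjusted p = 0.192).

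Counts of calls between conv-dSVA_F&D and conv-dSVA_D moved with single libraries. Without conv-dSVA_F&D replicate 1 limma called 11 of the 76 genes, all higher, against 2.44% of all genes higher. Without conv-dSVA_F&D replicate 2 or either conv-dSVA_F library it called 1, against 1.58% to 1.97% of all genes. Without conv-dSVA_D replicate 1 it called 0 of the 76 and 0 of all genes, and without conv-dSVA_D replicate 2 it called 0 of the 76, against 0.261% of all genes. On recovered reads edgeR called 5, all higher, against 1.96% of all genes higher, and DESeq2 called 16, all higher, against 4.34%.

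Between conv-dSVA_F&D and conv-dSVA_F, limma called 0 of the 76 genes, against 3.92% of all genes, with 8 at an unadjusted p under 0.05 (20.7% of all genes). By edgeR 0 were called, against 3.63% of all genes, and by DESeq2 1, against 7.91%. The median difference was 0.16, and 68 of 76 were above 0, against 48.9% of all genes. Without conv-dSVA_F&D replicate 2 the median was 0.073. Rps21 had the smallest p, with a difference of 0.51 ± 0.18 (limma, adjusted p = 0.149). Without conv-dSVA_F&D replicate 1 the count was 5, all higher, against 1.99% of all genes higher.

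Between conv-dSVA_F and conv-dSVA_D, limma again called 0 of the 76 genes, against 1.35% of all genes, with 8 at an unadjusted p under 0.05 (16.7% of all genes). By edgeR 0 were called, against 1.48% of all genes, and by DESeq2 3, against 4.78%. The median difference was 0.080, with 0.044 without conv-dSVA_D replicate 1 and 0.13 without conv-dSVA_D replicate 2. Rpl13, on chromosome 8, had a difference of 0.55 ± 0.16 (limma, adjusted p = 0.124). The F test of any difference among the 3 converted lines called 1 of 76, Rps29 (limma, adjusted p = 0.0305), against 5.58% of all genes. For this test edgeR called 2 of 76, against 5.48% of all genes, and DESeq2 17, against 12.4%.

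**Figure D4:**
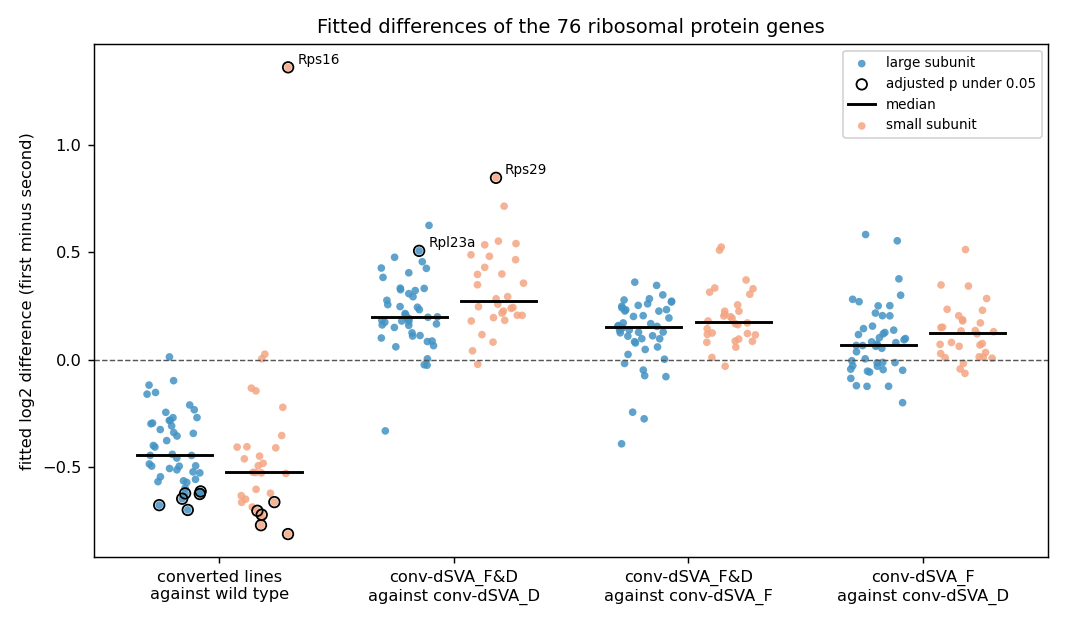
Fitted log2 difference of each ribosomal protein gene in 4 comparisons (first line minus second), by subunit, with the median as a bar and a ring around genes at an adjusted p under 0.05. The medians are -0.44 (large) and -0.53 (small) in the converted lines against the wild type, and 0.20 and 0.27 in conv-dSVA_F&D against conv-dSVA_D.

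Among the genes whose level moved most relative to the median ribosomal protein gene were Rps16, Rps14, Rps29, Rpl13 and Rps21. The range of this relative log2 level over the 7 libraries was 2.05 for Rps16, 0.90 for Rps14, 0.87 for Rps29, 0.76 for Rpl13 and 0.70 for Rps21, against a median of 0.31 over the 76 genes. A range above 0.5 was found in 19 genes. The wide range of Rps16 came from the wild type, a single library, at -1.80 from the gene's median relative level. Its converted libraries lay between -0.08 and 0.25 on this scale.

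Of these, Rps14 and Rpl13 lie on chromosomes whose other genes also differed between libraries. Rps14, the small-subunit gene of the human 5q- syndrome, is on chromosome 18, and had 47774 and 92273 normalized counts in conv-dSVA_F&D, 43347 and 49128 in conv-dSVA_F, 48869 and 46261 in conv-dSVA_D, and 61369 in the wild type. Rpl17, the other ribosomal protein gene of chromosome 18, had 17148 and 28811 in conv-dSVA_F&D, 18249 and 16407 in conv-dSVA_F, 15741 and 17362 in conv-dSVA_D, and 23502 in the wild type. Both were highest in conv-dSVA_F&D replicate 2, the only converted library above the wild type. In that library the other 262 protein-coding genes of chromosome 18 with a mean of at least 50 stood 0.51 above the median of all such genes on the log2 scale relative to the wild type, and between -0.10 and -0.03 in the other 5.

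Rpl13 was highest in conv-dSVA_F. It had 22123 and 21759 normalized counts in conv-dSVA_F&D, 30515 and 27158 in conv-dSVA_F, 16549 and 23234 in conv-dSVA_D, and 25858 in the wild type. Both conv-dSVA_F libraries were above the wild type, and the other 4 converted libraries were below it. The 579 other genes of chromosome 8 stood at 0.01 and -0.01 in conv-dSVA_F&D, 0.64 and 0.44 in libraries of conv-dSVA_F, and 0.07 and 0.25 in conv-dSVA_D, on the same log2 scale.

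Rpl32, on chromosome 6, had 45773 and 50277 normalized counts in conv-dSVA_F&D, 56489 and 57178 in conv-dSVA_F, 57121 and 63809 in conv-dSVA_D, and 63434 in the wild type. It was lowest in conv-dSVA_F&D. The 490 other genes of chromosome 6 stood at 0.00 and -0.01 in conv-dSVA_F&D, 0.41 and 0.36 in libraries of conv-dSVA_F, and 0.16 and 0.14 in conv-dSVA_D. The part of these chromosome-wide differences in the levels of the 4 genes was not tested. With each chromosome's median set equal to that of the wild type, 10 of the 76 genes were called against the wild type (0.879% of all genes) and 3 between conv-dSVA_F&D and conv-dSVA_D (3.34% of all genes).

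**Figure D5:**
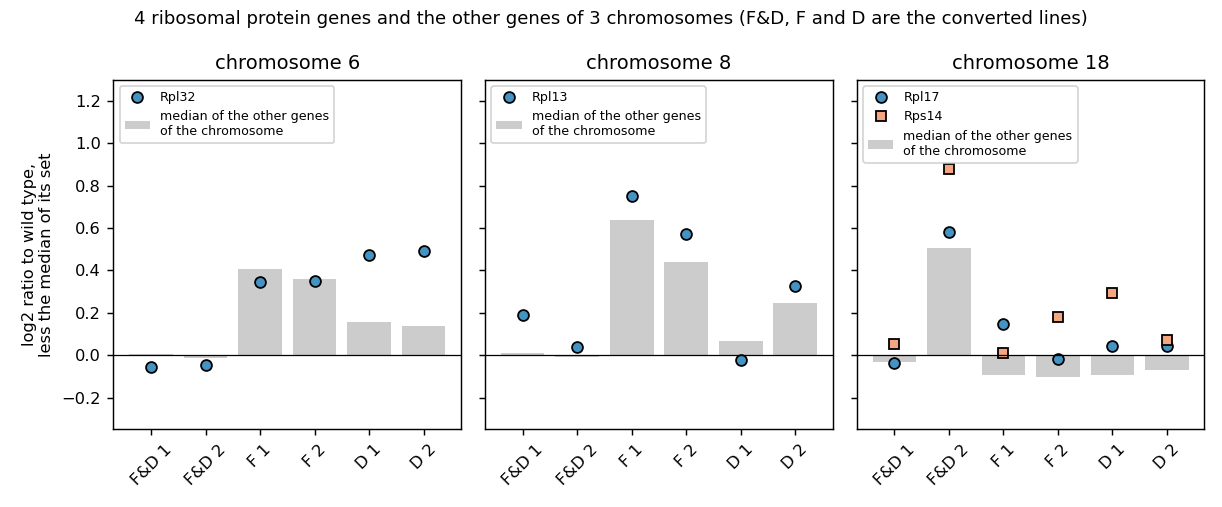
Log2 ratio to the wild type of Rpl32 (chromosome 6), Rpl13 (chromosome 8), Rps14 and Rpl17 (chromosome 18) in each converted library (points), less the median over all 76 genes, beside the median of the other genes of the chromosome, less the median over all such genes (grey bars). The chromosome 18 bar of conv-dSVA_F&D replicate 2 is at 0.51, and the chromosome 8 bars of conv-dSVA_F are at 0.64 and 0.44.

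The 4 ribosomal protein genes of the X chromosome, which carries Taf1, were Rpl10, Rpl36a, Rpl39 and Rps4x. Rps4x lies 583 kb beyond the end of Taf1. It had 32807 and 30640 normalized counts in conv-dSVA_F&D, 28010 and 25186 in conv-dSVA_F, 24123 and 28112 in conv-dSVA_D, and 43414 in the wild type. It was below the wild type in all 6 converted libraries, as were the other three genes. Relative to the median of all 76 genes, the median of the 4 lay between -0.15 and -0.07 in the 6 converted libraries. The 354 other genes of the X chromosome lay between -0.15 and -0.02, relative to the median of all such genes.

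Properties of the genes that were not used to choose them showed little relation to their differences. Over the 76 genes, Spearman's rho of the fitted difference from the wild type was -0.030 with the length of the principal transcript and -0.040 with the mean level; the genes share the same libraries. The 29 genes that host a small nucleolar RNA gene in their introns, 56 such RNAs in all, had a median difference of -0.46, and the 47 others had one of -0.48. Among promoters, the median difference was -0.45 for the 38 genes with CGGAAG and -0.50 for the 18 without. Of the 7 genes that fell and have a promoter entry, 3 held CGGAAG, namely Rps25, Rpl10 and Rps12.

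Ribosomal protein paralogs had fitted differences from -1.17 to 1.03 against the wild type, with a median of -0.35. The highest was that of Rpl3l, a gene of low level (1.03 ± 0.65, limma, adjusted p = 0.451). Rpl3l had 13.9 to 27.4 normalized counts in the converted libraries and 10.9 in the wild type. Of 8 tested, Rpl10l, Rpl39l and Rpl22l1 fell in the converted lines, with differences of -1.17 ± 0.16, -1.09 ± 0.17 and -0.80 ± 0.14 (limma, adjusted p = 0.0235, 0.0312 and 0.0390). Rpl10l and Rpl39l are paralogs of the X-linked Rpl10 and Rpl39 that are known for their use in male germ cells. Rps4l stood at 0.18 ± 0.13 against the wild type (adjusted p = 0.505) and fell in conv-dSVA_F&D relative to conv-dSVA_D by 0.62 ± 0.12 (limma, adjusted p = 0.0264). Of Fau, Rps3a1 and Rack1, which lie outside the name rule, none passed, with Fau at -0.55, Rps3a1 at -0.56 and Rack1 at -0.28 against the wild type.

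Other genes of the ribosome pathway were compared in the same fit. Over all genes tested, 0.623% were called higher and 0.525% lower in the converted lines against the wild type. Of 73 ribosome biogenesis genes tested, 2 rose in the converted lines and 0 fell, with a median difference of 0.04. The 2 were Nob1, which trims the RNA of the small subunit (0.79 ± 0.13), and Bms1, a GTPase of small-subunit assembly (0.60 ± 0.11; limma, adjusted p = 0.0312 and 0.0439). Of 19 genes of RNA polymerase I and its factors, 1 rose, Polr1a, the largest subunit (0.70 ± 0.13, limma, adjusted p = 0.0430), and the median was 0.07. Of 77 mitochondrial ribosomal proteins, which serve the separate ribosome of mitochondria, 1 rose, Mrpl12 (0.94 ± 0.14, limma, adjusted p = 0.0312), and the median was -0.25.

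Translation factors and snoRNA host genes share the pyrimidine tract with ribosomal protein genes in many cases. Of 38 genes listed as translation factors, Eif3b, a scaffold of initiation factor 3, rose (0.85 ± 0.12, limma, adjusted p = 0.0237). Tpt1, which was placed in the same list, fell (-0.93 ± 0.12, limma, adjusted p = 0.0201). The median of the list was -0.18. Of 16 snoRNA host genes, Snhg1 and Snhg8 fell (-0.84 ± 0.15 and -0.85 ± 0.16, limma, adjusted p = 0.0390 and 0.0457), with a median of -0.42. Of 27 MYC and mTORC1 genes, 1 rose: Larp1, whose protein binds the pyrimidine tract and holds back its translation (0.83 ± 0.15, limma, adjusted p = 0.0388), with a median of 0.20.

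In conv-dSVA_F&D relative to conv-dSVA_D the ribosome biogenesis genes Nop2, Bms1 and Nmd3 fell, by 0.72, 0.62 and 0.48 on the log2 scale (limma, adjusted p = 0.0163, 0.0186 and 0.0474), and the median of the 73 was -0.14. Of the mitochondrial ribosomal proteins Mrpl57, Mrpl16 and Mrpl51 fell, by 0.77, 0.61 and 0.67, with a median of -0.17. The medians of the 76 ribosomal protein genes and of the snoRNA host genes in this comparison were 0.23 and 0.33, and Snhg8 rose by 0.81 ± 0.15 (limma, adjusted p = 0.0256). Of 38 translation factors none passed, with a median of 0.10. Over all genes tested 3.16% were called in this comparison. In the same comparison, the two-cell-like markers Tmem92, Zscan4d and Zscan4c and the keratin genes Krt8 and Krt18 rose by 2.08 to 3.55, and the embryonic stem cell marker Nanog fell by 0.65. The part of cell state in the ribosomal protein genes was not tested.

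Between conv-dSVA_F&D and conv-dSVA_F, 3.92% of all genes tested were called. Of the 73 ribosome biogenesis genes 1 rose, Noc2l (0.46 ± 0.11, limma, adjusted p = 0.0480). Another 3 fell, Nob1, Nip7 and Nop2, by 0.73, 0.74 and 0.50 on the log2 scale (limma, adjusted p = 0.0176, 0.0342 and 0.0472). The translation factors Eif1, which selects start codons, and Pabpc1, which binds the poly(A) tail, rose by 0.66 ± 0.15 and 0.87 ± 0.20 (limma, adjusted p = 0.0408 and 0.0434), and the other 36 did not pass. Polr1a fell by 0.64 (limma, adjusted p = 0.0247) and the mitochondrial ribosomal protein Mrps25 by 0.79 (limma, adjusted p = 0.0311), while Mxi1, Ddit4 and Mycn of the MYC and mTORC1 genes rose by 0.84, 0.66 and 0.60 (limma, adjusted p = 0.0264, 0.0301 and 0.0410). Between conv-dSVA_F and conv-dSVA_D, 1.35% of all genes tested were called. Here 1 ribosome biogenesis gene rose, Nob1 (0.58 ± 0.12, limma, adjusted p = 0.0481). Of the MYC and mTORC1 genes 1 fell, Ddit4 (-0.92 ± 0.13, limma, adjusted p = 0.0193). No translation factor, snoRNA host gene or mitochondrial ribosomal protein passed.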

How the data were processed

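The deposited signal of the 7 stem cell libraries was a table of counts per gene that the authors had scaled with a size factor for each library, as the table's values show. Per the submitters' processing notes, the tools were DESeq2, featureCounts 1.6.3, STAR 2.7.3, deepTools 3.1.0, Trimmomatic 0.36 and Picard 2.18.20, on mm10. Neither the annotation, the use of strand nor the step each tool served is given in the sources used here. The step between low values in a column gave back whole reads: 100% of values came within 0.1 of a whole number. Positions and biotypes came from GENCODE M21, which matched 92.9% of gene names and all 76 ribosomal protein genes.

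Tests used limma 3.58.1 in R 4.3.3 with a variance trend on log2(normalized count + 1) over 15240 genes with a mean of at least 10. The fit had a mean for each of 4 groups and 3 residual degrees of freedom. Two-sided p-values were adjusted over all genes by Benjamini-Hochberg, with 0.05 as the threshold. Fold changes are on this log2 scale, which understates the change of low genes. edgeR 4.0.16 (quasi-likelihood test) and DESeq2 1.42.0 on recovered reads, other scalings, filters and pseudocounts and leaving out each converted library were alternatives. Only the limma fit was tested on simulated data, and only for conv-dSVA_F&D against conv-dSVA_D. A gene at 0 could have had up to 3 reads (2.45 to 4.18 normalized counts), for counting error only.

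The ribosomal protein genes and the gene lists were chosen with earlier results of these data known. Genes named were all that passed the threshold, Rps16, the stalk proteins, up to 5 per comparison and direction by smallest p, the 5 highest and lowest per length, 5 of the 6 with the widest relative range, 4 on chromosomes 6, 8 and 18, those with near-identical copies, and up to 3 called genes per list, as well as Taf1. X-linked genes, neighbours of Rps16, other paralogs and proteins outside the name rule, and further examples were named after their values were seen. Results for some genes are not reported here.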

Additional observations from a re-analysis of the deposited data

How the results depend on the processing

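No paired analysis was possible because the labels carry no replicate number that ties a library of one line to a library of another. Medians over the 76 genes kept their direction in all 4 comparisons when each converted library was left out in turn. They were -0.49 to -0.45 against the wild type and 0.16 to 0.31 for conv-dSVA_F&D against conv-dSVA_D. For conv-dSVA_F&D against conv-dSVA_F they were 0.073 to 0.23, and for conv-dSVA_F against conv-dSVA_D 0.044 to 0.13. The single wild type library was never left out. No result reversed. The count of 12 against the wild type became 27 with edgeR, 44 with DESeq2, 5 with no filter, 0 without a variance trend, 0 with each side as 1 group and 0 to 31 without single libraries. The count of 2 for conv-dSVA_F&D against conv-dSVA_D became 5 with edgeR, 16 with DESeq2, 0 with no filter, 0 without a variance trend, 1 with TMM, 1 with the libraries of both lines alone and 0 to 11 without single libraries. The count of 0 for conv-dSVA_F&D against conv-dSVA_F became 1 with DESeq2 and 0 to 5 without single libraries. The count of 0 for conv-dSVA_F against conv-dSVA_D became 3 with DESeq2, 2 with the libraries of both lines alone and 0 to 2 without single libraries. The F test count of 1 became 2 with edgeR, 17 with DESeq2, 0 with no filter, 0 without a variance trend and 0 to 11 without single libraries. The median of the large subunit less that of the small subunit was -0.073 for conv-dSVA_F&D against conv-dSVA_D, and -0.12 to -0.049 without single libraries. The difference in share of reads, mean of the converted libraries less the wild type, was -2.17 percentage points, and -3.16 with the 100 most abundant other genes left out of the total. The difference in small over large subunit reads was -0.038, and -0.016 per exon length. The cause of these changes was not tested. Each converted line had 2 libraries and the wild type 1, which limits the precision of the comparisons they enter.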
